A study of Homo sapiens with 16 samples.

Results

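The genes that carry a cell through G2 and mitosis were followed in 2 human breast cancer cell lines exposed to MitoQ, by RNA sequencing. The group holds 58 genes of the 35106 in the table, drawn up as a list of symbols by function. No measured value set the list, but it was chosen with earlier results of these data known. By symbol 57 were found; KIF23 was found by its Ensembl ID, because its row carries a clone name in place of the symbol. They fall into 10 kinesins, 8 kinetochore and centromere genes, 5 genes of the spindle checkpoint, 6 genes of the mitotic kinases and the chromosomal passenger complex, 6 cyclins, CDK1 and CDC25 phosphatases, 6 genes of anaphase and mitotic exit, 5 of spindle assembly, 4 of cytokinesis, 6 of condensin and chromosome structure, and 2 transcription factors. All 58 passed the filter on low counts in each of the 4 comparisons made.

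MDA-MB-231 lacks the estrogen, progesterone and HER2 receptors, whereas SKBR3 carries extra copies of ERBB2, the gene for HER2; both grew from pleural effusions of adenocarcinomas. MitoQ, a quinone carried into mitochondria by an attached phosphonium cation, was given at 500 nM for 48 h. MDA-MB-231, used at passage 25, gave 5 libraries without and 5 with MitoQ; SKBR3, used at passage 10, gave 3 of each, so effects of line and of passage cannot be told apart. What the controls received, and whether replicates were separate cultures, is not given in the sources used here; if they were not, the p-values measure only the spread between these libraries, which may be technical.

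Estimated counts per library summed to 14723152 to 29294865, and the lowest of the 58 genes was SPC25 in SKBR3, at 8.20 CPM in its controls. Levels are given as CPM, counts scaled to a common library size, and values in brackets after a gene are log2 fold changes of MitoQ over control. The lines were checked by markers: all 7 MDA-MB-231 markers tested, VIM and AXL among them, were lower in SKBR3, and 7 of 8 SKBR3 markers, ERBB2 and KRT19 among them, were higher there. Of 6 leukocyte markers 1 passed the filter in each line (CD68), at 42.6 CPM in MDA-MB-231 and 5.72 CPM in SKBR3 controls, while PTPRC reached at most 0.334 CPM in a group and CD3E and HBB lay below it; of 7 fibroblast and endothelial markers 4 passed in MDA-MB-231, the highest of them COL1A1 at 6.40 CPM, and 6 in SKBR3, the highest CDH5 at 17.6 CPM.

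Most of these genes are transcribed late in the cell cycle and their mRNAs fall again once cells have divided. Cyclin B with CDK1 starts mitosis, the Polo and Aurora kinases build and correct the spindle, the checkpoint holds the anaphase-promoting complex until every kinetochore is attached, and securin and cyclin B are then destroyed so that chromosomes part and the cell cleaves. Many of their promoters share a short element, the CHR (cell cycle genes homology region), which is bound by the MuvB core of the repressive DREAM complex and of the activating B-MYB and FOXM1 complexes, along with CCAAT boxes bound by NF-Y. In bulk RNA, a smaller share of cells in G2 and mitosis cannot be told apart from less of each mRNA per cell.

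In MDA-MB-231 given MitoQ nearly the whole group fell. Of the 58 genes 56 were lower at an adjusted p under 0.05 in edgeR's quasi-likelihood test with Benjamini-Hochberg adjustment, and none was higher; over all 15304 genes tested 27.6% were lower and 29.9% higher. The median log2 fold change of the group was -0.94, a 1.92-fold lower level, against 0.012 over all genes tested. At least 2-fold lower were 21 of the 58, where 2.09% of all genes were. In 55 of them every MitoQ library lay below every control library, which held for 21.1% of all genes; the other 3, BUB3, MYBL2 and CDCA5, overlapped. The largest falls were those of KIF20A (-2.15), AURKA (-1.73), PLK1 (-1.68), CCNB1 (-1.64), CDCA3 (-1.57) and DLGAP5 (-1.54), which ranked number 26, 64, 75, 85, 96 and 100 by log2 fold change among all falls in the line.

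The libraries of a group lay close together. Taken as the median over the 58 genes of the log2 ratio to the mean of the line's controls, the 5 MDA-MB-231 controls lay between -0.034 and 0.025 and the 5 MitoQ libraries between -0.998 and -0.856, with a mean of -0.93 ± 0.051 (SD, n = 5). In SKBR3 the 3 controls lay between -0.026 and 0.021 and the 3 MitoQ libraries between -0.058 and 0.014, so the groups overlapped there.

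**Figure D1:**
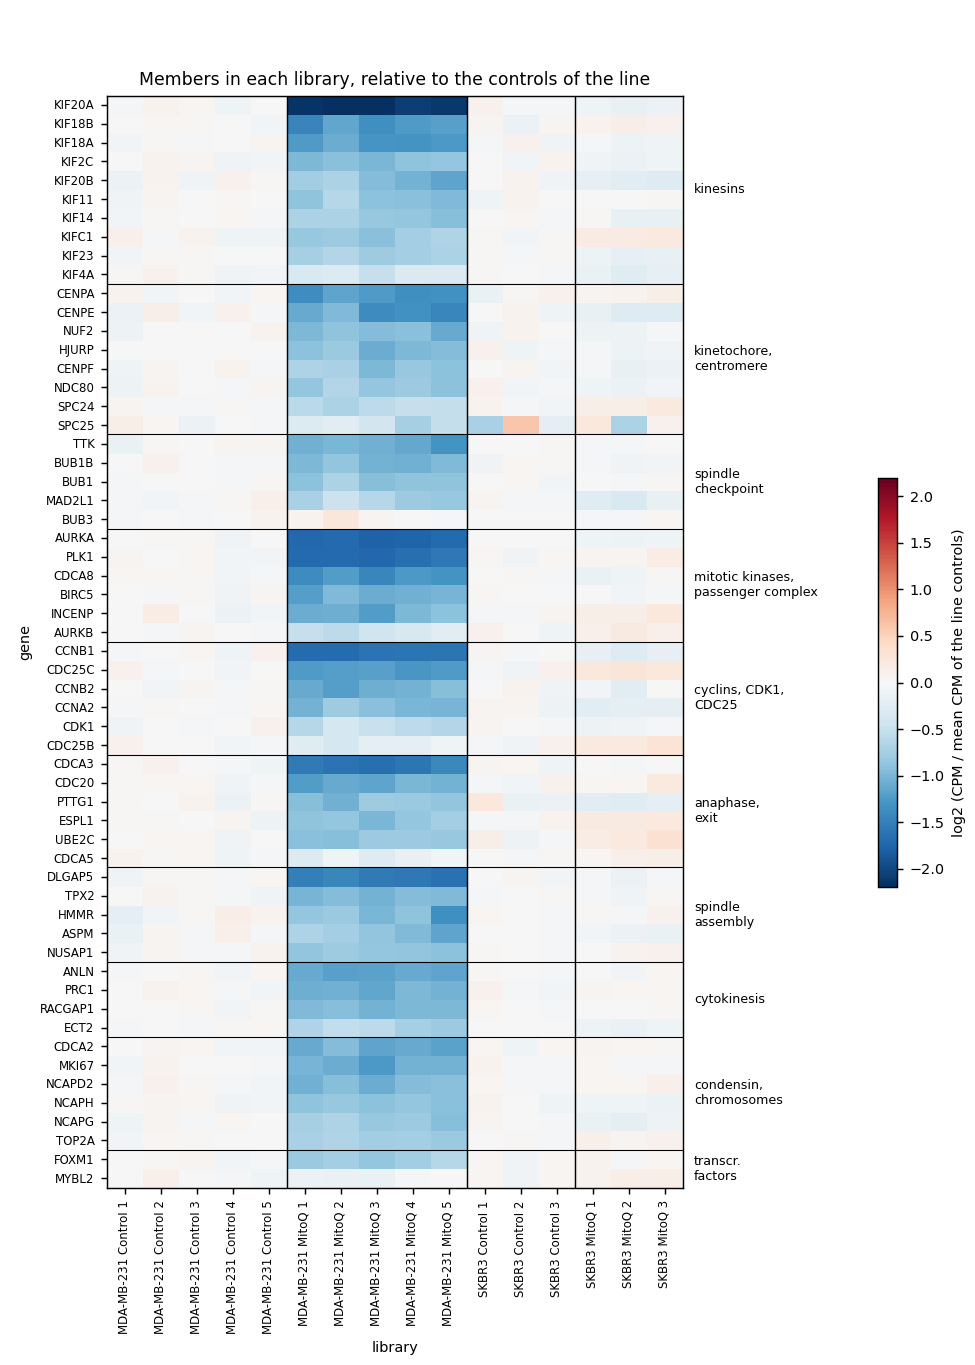
Each cell is the log2 ratio of a gene's CPM in 1 library (columns, 16 libraries) to its mean in the controls of the same line; genes (lines of the map) are ordered by class and by their change in MDA-MB-231. The 5 MDA-MB-231 MitoQ libraries are blue almost throughout, with medians between -0.998 and -0.856, while the SKBR3 MitoQ libraries stay near 0.

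The promoters of the group were read for the CHR and CCAAT elements. RefSeq promoters (GRCh38.p14; 250 bases before to 50 after the gene's start) matched 49 of the 58 genes, and BUB3, TTK, AURKA, BIRC5, UBE2C, TPX2, RACGAP1, CDCA2 and FOXM1 have no entry. A CHR, searched as TTTGAA or TTCGAA on both strands, was found in 38 of the 49 (77.6%), against 16.4% of all 34796 promoters of that length and 12.3% of the 16305 promoters of genes tested in MDA-MB-231. CCAAT on either strand was found in 39 of 49 (79.6%) against 34.6% of all promoters, and 24 of 49 (49%) held at least 2 copies, against 10.8%. Both elements were present in 32 of 49 (65.3%) and in 6.4% of all promoters. On the listed strand alone the CHR share was 69.4% against 9.71%, and the CCAAT share 44.9% against 19.6%.

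The tandem of GGCGG, 4 bases and a CHR (the CDE-CHR; its CHR is counted above too) was found in 4 of 49 promoters, those of NUF2, CDC25C, CDCA3 and CDCA5 (8.16%), against 0.069% of all promoters. E2F sites, searched as TTTCCCGC, TTTGGCGC, TTTCGCGC or TTTGCCGC on both strands, were found in 4 of 49 (8.16%: CENPA, CDK1, CDCA5 and NUSAP1) and in 3.3% of all promoters. The 49 CHR copies had a median position of -26, and 36 of them, in 31 genes, began within 50 bases of the start. On the listed strand lay 40 of the 49, where TTCGAA, which reads the same on both strands, was always counted as listed. The 84 CCAAT copies had a median position of -75. Positions and strands were not counted over all promoters. The letters of the CHR were not found in the windows of KIF20A, KIF2C, CENPE, SPC24, AURKB, CCNA2, CCNB1, CDC25B, PTTG1, NCAPH and MYBL2, which says only that they are not in these windows. Of the 49 genes 6, AURKB, CDC25B and PTTG1 among them, have more than 1 listed start, and a single start was read for each. With any listed start 39 of 49 (79.6%) held a CHR. The shares over all promoters count every listed start with a distinct sequence. In MDA-MB-231 the median log2 fold change was -0.93 for the 38 genes with a CHR and -0.88 for the 11 without.

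In 9 of the 10 classes at least 1 gene had a CHR, and the one that fell furthest in MDA-MB-231 was taken from each; the 8 with the largest falls are shown. The ninth, BUB1B of the spindle checkpoint, holds 1 CHR and no CCAAT and is not printed. Each runs 5′ to 3′ on the strand of its gene, from 250 bases before the RefSeq start to 30 bases past it (GRCh38.p14), with CHR and CCAAT matches of either strand in capitals, so that TTCAAA and ATTGG mark the other strand. PLK1 is at chr16:23678639-23678918 (plus strand), CDCA3 at chr12:6851257-6851536 (minus strand), DLGAP5 at chr14:55191556-55191835 (minus strand) and CENPA at chr2:26785806-26786085 (plus strand). KIF18B is at chr17:44947744-44948023 (minus strand), CDC25C at chr5:138331775-138332054 (minus strand), ANLN at chr7:36389612-36389891 (plus strand) and MKI67 at chr10:128126394-128126673 (minus strand).
PLK1: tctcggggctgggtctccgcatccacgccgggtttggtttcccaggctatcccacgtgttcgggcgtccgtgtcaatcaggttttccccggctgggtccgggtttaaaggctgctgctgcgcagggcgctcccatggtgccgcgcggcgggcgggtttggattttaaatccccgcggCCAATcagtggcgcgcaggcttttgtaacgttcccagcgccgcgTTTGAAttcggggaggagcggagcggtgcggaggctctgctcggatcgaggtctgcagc
CDCA3: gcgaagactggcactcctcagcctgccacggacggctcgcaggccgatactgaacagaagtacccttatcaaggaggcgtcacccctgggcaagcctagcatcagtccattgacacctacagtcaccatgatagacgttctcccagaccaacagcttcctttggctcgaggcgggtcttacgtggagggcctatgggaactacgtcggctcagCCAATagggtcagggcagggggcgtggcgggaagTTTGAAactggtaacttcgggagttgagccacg
DLGAP5: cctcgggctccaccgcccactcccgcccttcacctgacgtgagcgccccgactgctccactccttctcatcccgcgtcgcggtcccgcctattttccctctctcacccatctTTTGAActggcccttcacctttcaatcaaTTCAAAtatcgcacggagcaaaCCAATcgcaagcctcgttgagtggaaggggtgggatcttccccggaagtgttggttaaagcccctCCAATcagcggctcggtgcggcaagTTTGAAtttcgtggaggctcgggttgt
CENPA: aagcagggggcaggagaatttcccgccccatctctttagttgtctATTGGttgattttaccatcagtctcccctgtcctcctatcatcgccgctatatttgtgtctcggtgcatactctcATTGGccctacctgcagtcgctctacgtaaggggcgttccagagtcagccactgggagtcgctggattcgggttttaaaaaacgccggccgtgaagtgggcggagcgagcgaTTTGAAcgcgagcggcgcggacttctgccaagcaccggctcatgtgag
KIF18B: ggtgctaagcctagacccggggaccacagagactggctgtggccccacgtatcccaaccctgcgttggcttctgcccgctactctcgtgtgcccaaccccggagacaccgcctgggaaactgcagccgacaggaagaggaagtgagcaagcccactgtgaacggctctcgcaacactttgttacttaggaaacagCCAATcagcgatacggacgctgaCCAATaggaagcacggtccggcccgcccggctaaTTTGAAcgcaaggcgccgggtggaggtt
CDC25C: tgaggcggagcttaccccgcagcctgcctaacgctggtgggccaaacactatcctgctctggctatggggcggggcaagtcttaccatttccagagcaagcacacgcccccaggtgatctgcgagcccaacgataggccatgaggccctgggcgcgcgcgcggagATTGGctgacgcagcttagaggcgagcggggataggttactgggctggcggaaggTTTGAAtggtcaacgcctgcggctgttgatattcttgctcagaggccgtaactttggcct
ANLN: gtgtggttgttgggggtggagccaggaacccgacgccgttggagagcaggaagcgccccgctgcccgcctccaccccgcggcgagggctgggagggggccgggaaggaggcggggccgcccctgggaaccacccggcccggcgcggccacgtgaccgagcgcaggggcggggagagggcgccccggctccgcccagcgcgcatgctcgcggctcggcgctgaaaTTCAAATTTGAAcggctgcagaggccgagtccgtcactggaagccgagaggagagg
MKI67: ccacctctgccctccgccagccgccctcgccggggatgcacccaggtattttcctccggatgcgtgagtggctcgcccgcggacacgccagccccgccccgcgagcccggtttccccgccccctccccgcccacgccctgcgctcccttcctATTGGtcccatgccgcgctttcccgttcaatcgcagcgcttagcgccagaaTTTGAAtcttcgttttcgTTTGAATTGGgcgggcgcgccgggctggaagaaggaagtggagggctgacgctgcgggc

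In 7 of these promoters, all but that of ANLN, at least 1 CCAAT box of either strand lies before a CHR that begins within 50 bases of the start. DLGAP5 holds 3 CHR copies and 2 CCAAT boxes. In ANLN 2 CHR copies of opposite strands adjoin and the window holds no CCAAT, and in MKI67 a CHR and a CCAAT box share bases. A match is a run of letters and no measured binding.

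**Figure D2:**
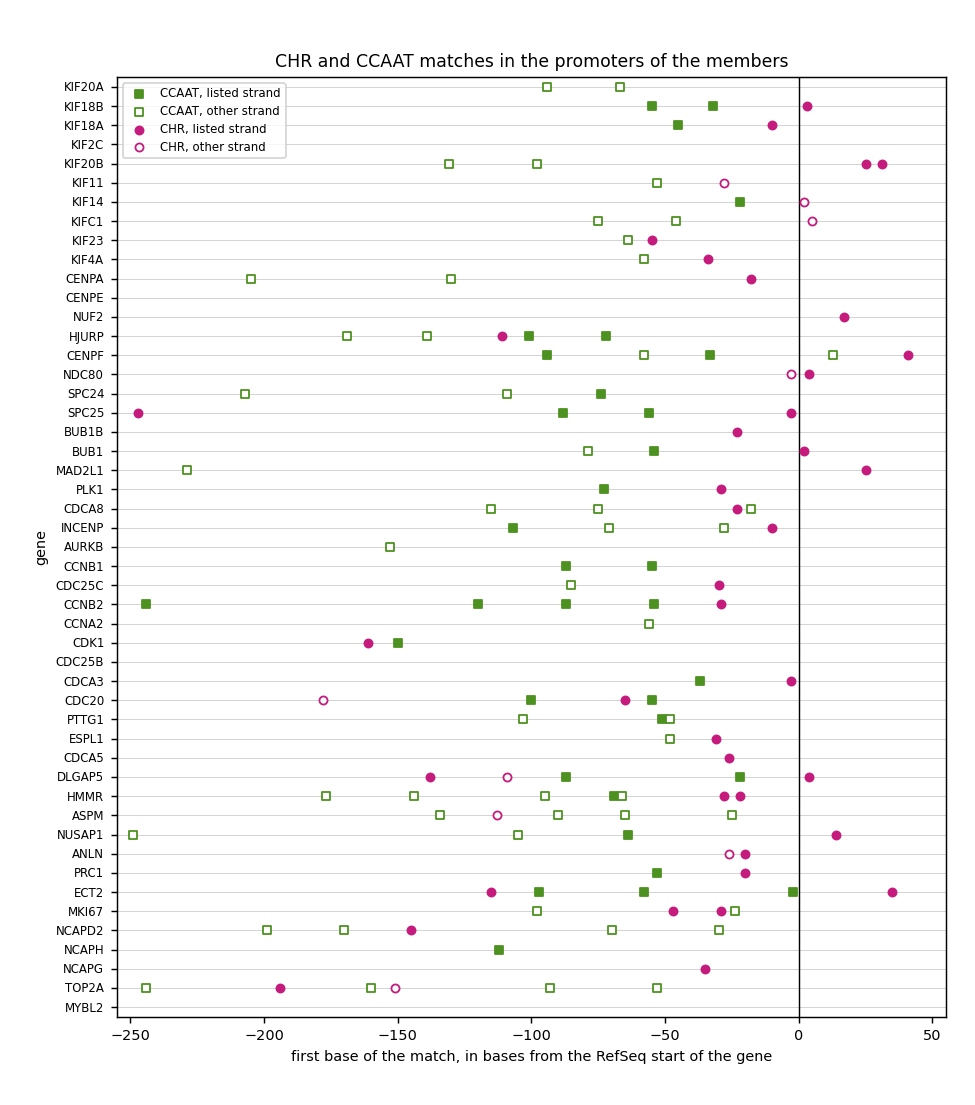
Positions of CHR (circles) and CCAAT (squares) matches in the promoters of the 49 genes with a RefSeq entry, in bases from the gene's start (x axis). Symbols are filled on the listed strand, TTCGAA (the same on both) included, and open on the other. Of the 49 CHR matches 36 begin within 50 bases of the start, while CCAAT matches spread upstream with a median at -75.

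Mitosis is entered when cyclin-bound CDK1 is switched on, and of the 6 genes of this step all were lower in MDA-MB-231 (median -1.01). CCNB1 (chr5:69167010-69178245 on GRCh38 in GENCODE 29, as for each gene position below), which encodes cyclin B1, read 266, 271, 279, 255 and 291 CPM in the controls and 84.5, 84.0, 88.7, 89.0 and 89.4 CPM with MitoQ. Every treated library lay far below every control, with a log2 fold change of -1.64 (SE 0.046, adjusted p = 7.19e-16), 3.13-fold lower. CCNA2, the S and G2 cyclin A2, read 180.0, 186, 185, 177 and 188 CPM in the controls and 89.4, 107, 97.3, 90.8 and 90.4 CPM with MitoQ; the groups did not overlap and the change was -0.95 (SE 0.05, adjusted p = 8.83e-12). CDK1 (chr10:60778331-60794852), the kinase itself, moved less: 220.3, 234, 227, 233 and 247 CPM in the controls and 150.3, 178, 165, 155 and 148 CPM with MitoQ, still without overlap, at -0.54 (SE 0.052, adjusted p = 4.39e-08). CDC25B, a phosphatase that activates CDK1, changed least of the class, from 138, 129, 131, 125 and 126 CPM to 108, 99.5, 111, 114 and 121 CPM, at -0.23 (SE 0.051, adjusted p = 0.000764). Its sister CDC25C changed by -1.24 and cyclin B2 (CCNB2) by -1.07.

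The class of mitotic kinases and the chromosomal passenger complex had the lowest median, -1.19, with 6 of 6 lower and 5 at least 2-fold. AURKA (chr20:56369389-56392337), the Aurora kinase of the spindle poles, read 206, 209, 208, 195 and 204 CPM in the controls and 62.0, 62.8, 59.6, 60.6 and 62.4 CPM with MitoQ. No treated library came near a control, and AURKA fell 3.32-fold (-1.73, SE 0.041, adjusted p = 9.35e-17). Of its 31-base stretches 16.2% also occur in other transcripts, 11.9% in those of RAB3GAP2. PLK1 (chr16:23677656-23690367), the Polo-like kinase needed from entry to cytokinesis, read 150.3, 144, 148, 137 and 138 CPM in the controls and 43.7, 44.0, 43.1, 45.2 and 48.3 CPM with MitoQ. It fell 3.20-fold without overlap (-1.68, SE 0.047, adjusted p = 9e-16). AURKB (chr17:8204733-8210600), the catalytic subunit of the passenger complex, which corrects faulty attachments, read 127, 122, 131, 125 and 124 CPM in the controls and 88.6, 84.5, 93.1, 98.5 and 105 CPM with MitoQ. Its groups did not overlap, but its change of -0.42 (SE 0.054, adjusted p = 1.84e-06) was the smallest of the class. The other subunits of that complex moved more: BIRC5 (survivin) read 232, 224, 232, 219 and 241 CPM in the controls and 99.4, 118, 108, 111 and 112 CPM with MitoQ, at -1.07 (SE 0.048, adjusted p = 9.12e-13), borealin (CDCA8) changed by -1.32 and INCENP by -1.06. The difference between AURKB and its partners was not tested.

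All 10 kinesins, motor proteins that move along microtubules, were lower, with a median of -0.88 and 3 at least 2-fold. KIF20A (chr5:138178719-138187715), which brings PLK1 and other proteins to the central spindle, read 155, 166, 163, 148 and 156 CPM in the controls and 35.4, 34.2, 33.7, 37.7 and 36.1 CPM with MitoQ. It fell 4.45-fold (-2.15, SE 0.049, adjusted p = 4.42e-17), further than any other gene of the group, and its CPM varied little within each group. KIF11 (chr10:92593286-92655395), the Eg5 motor that pushes spindle poles apart, read 267, 293, 283, 289 and 283 CPM in the controls and 152, 184, 151, 150.4 and 145 CPM with MitoQ; library 2 stood above the other treated libraries and below every control, and the change was -0.85 (SE 0.057, adjusted p = 2.91e-10). KIF4A, which binds chromosome arms, changed least, from 101, 106, 101, 94.9 and 95.1 CPM to 79.2, 81.2, 70.0, 79.8 and 79.8 CPM (-0.35, SE 0.05, adjusted p = 6.1e-06), and 27.3% of its 31-base stretches also occur in other transcripts, mostly of the retrogene KIF4B. The depolymerase KIF18A and its paralog KIF18B changed by -1.24 and -1.27, and KIF2C (MCAK), KIF20B, KIF14, KIFC1 and KIF23 lay between -0.93 and -0.72.

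The 8 kinetochore and centromere genes, which tie chromosomes to microtubules, were all lower, with a median of -0.89. CENPA (chr2:26764289-26801067), the histone H3 variant that marks centromeres, read 48.6, 44.3, 46.2, 44.5 and 47.7 CPM in the controls and 18.04, 20.7, 19.6, 18.1 and 18.5 CPM with MitoQ, a 2.44-fold fall without overlap (-1.29, SE 0.056, adjusted p = 5e-13). Its chaperone HJURP changed by -0.95. NDC80 (chr18:2571511-2616635), which gives its name to the complex that grips microtubules, read 122, 138, 132, 127 and 137 CPM in the controls and 72.4, 83.6, 73.1, 75.2 and 70.2 CPM with MitoQ and fell 1.75-fold (-0.81, SE 0.052, adjusted p = 1.8e-10). Its partner NUF2 changed by -0.97, and the other subunits of that complex by less, SPC24 by -0.58 and SPC25 by -0.43 (SE 0.081, adjusted p = 0.00015). SPC25, the least changed of the class, read 25.7, 24.3, 21.5, 23.4 and 22.8 CPM in the controls and 19.1, 19.8, 17.8, 14.2 and 16.5 CPM with MitoQ; 11.6% of its 31-base stretches occur in other transcripts. The motor CENPE changed by -1.23 and the large outer-plate protein CENPF by -0.82.

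Of the 5 genes of the spindle checkpoint 4 were lower. TTK, the MPS1 kinase at the head of the checkpoint, read 93.8, 105, 104, 108 and 108 CPM in the controls and 49.98, 51.7, 50.2, 47.7 and 41.9 CPM with MitoQ and fell 2.15-fold (-1.11, SE 0.058, adjusted p = 8.09e-12). BUB1 (chr2:110637698-110678114), a checkpoint kinase, read 375, 383, 383, 375 and 389.8 CPM in the controls and 203, 234, 199, 205 and 206 CPM with MitoQ, with treated library 2 above the other treated ones and all of them below the controls (-0.86, SE 0.047, adjusted p = 1.2e-11). BUB1B (BubR1) changed by -0.98 and MAD2L1 (MAD2) by -0.68. BUB3, the WD-repeat partner of BUB1 and BubR1, did not pass the test: it read 334, 339, 336, 339 and 362 CPM in the controls and 360.4, 407, 357, 345 and 333 CPM with MitoQ, and the groups overlapped (0.076, SE 0.051, adjusted p = 0.215). Scaled by library totals alone (plain totals), BUB3 was called higher (0.14, adjusted p = 0.0355).

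The 6 genes of anaphase and mitotic exit were lower, with a median of -0.87. CDC20 (chr1:43358955-43363203), the activator of the anaphase-promoting complex, read 358, 365, 365, 336 and 343 CPM in the controls and 151, 164, 158, 176 and 171 CPM with MitoQ, a 2.16-fold fall without overlap (-1.11, SE 0.048, adjusted p = 4.28e-13); 20.3% of its 31-base stretches lie in the pseudogene CDC20P1 too. PTTG1, which encodes securin, the inhibitor of separase, read 111, 108, 116, 101 and 112 CPM in the controls and 57.5, 52.9, 64.0, 62.4 and 60.3 CPM with MitoQ (-0.88, SE 0.054, adjusted p = 8.61e-11), and separase itself (ESPL1) changed by -0.86. CDCA3, a trigger of mitotic entry that helps degrade WEE1, fell furthest in the class, from 68.2, 71.6, 66.6, 65.5 and 62.7 CPM to 22.7, 21.6, 21.1, 22.3 and 25.0 CPM (-1.57, SE 0.056, adjusted p = 2.91e-14). CDCA5 (sororin), which protects sister cohesion, moved least: 118, 113, 114, 104 and 108 CPM in the controls and 89.998, 104, 91.5, 99.1 and 107 CPM with MitoQ, with overlap, at -0.18 (SE 0.054, adjusted p = 0.00792). That call was lost with plain library totals (-0.12, adjusted p = 0.0561). UBE2C, the E2 enzyme of the anaphase-promoting complex, changed by -0.86.

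In spindle assembly 5 of 5 genes were lower, with a median of -0.97. DLGAP5 (HURP), which bundles microtubules near chromosomes, read 298, 319.8, 318, 309.6 and 322 CPM in the controls and 111, 115, 107, 105 and 101 CPM with MitoQ and fell 2.91-fold (-1.54, SE 0.046, adjusted p = 1.94e-15). TPX2 (chr20:31739271-31801805), the activator of AURKA on the spindle, read 565, 597, 577, 551 and 534 CPM in the controls and 279, 291, 276, 290.0 and 289 CPM with MitoQ, a 1.98-fold fall (-0.99, SE 0.043, adjusted p = 4.43e-13). HMMR changed by -0.97 and ASPM by -0.87. NUSAP1 was the least changed at -0.86 (SE 0.044, adjusted p = 5.68e-12), and 61.4% of its 31-base stretches occur in other transcripts, 57.2% in the read-through gene AC087721.2. With the counts of that gene added, its change was -0.72, still called.

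All 4 cytokinesis genes were lower, with a median of -1.02. ANLN (anillin), a scaffold of the cleavage furrow, read 701, 725, 729.7, 691 and 734 CPM in the controls and 331, 314, 316, 333 and 321 CPM with MitoQ and fell 2.22-fold (-1.15, SE 0.04, adjusted p = 2.38e-14). PRC1 (chr15:90966038-90995629), which crosslinks microtubules of the central spindle, read 286, 300.4, 293, 276 and 273 CPM in the controls and 136, 137, 129, 143 and 139 CPM with MitoQ (-1.06, SE 0.044, adjusted p = 2.56e-13). PRC1 shares 53.3% of its 31-base stretches with the read-through gene AC068831.7, and with those counts added it changed by -1.04. RACGAP1, a subunit of centralspindlin with KIF23, changed by -0.99, and the RhoA activator ECT2, the least changed, by -0.66 (SE 0.05, adjusted p = 1.79e-09).

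The 6 condensin and chromosome structure genes were lower too, with a median of -0.94. MKI67 (chr10:128096659-128126385), the Ki-67 proliferation antigen that coats mitotic chromosomes, read 1324, 1465, 1394, 1401 and 1339.7 CPM in the controls and 685, 651, 578, 673 and 672 CPM with MitoQ, a 2.12-fold fall without overlap (-1.09, SE 0.051, adjusted p = 1.55e-12). TOP2A (chr17:40388516-40417950), the topoisomerase that untangles sister chromatids, read 1107, 1194, 1175, 1145 and 1149 CPM in the controls and 707, 732, 683, 684 and 653 CPM with MitoQ, the smallest change of the class (-0.74, SE 0.044, adjusted p = 4.41e-11). CDCA2 (Repo-Man), which recruits a phosphatase to chromatin at exit, changed most, by -1.10, and the condensin I subunits NCAPD2, NCAPH and NCAPG by -0.99, -0.88 and -0.79. Of the 2 transcription factors FOXM1 (chr12:2857681-2877155), which drives G2 and M genes, read 225, 226, 233, 215 and 218 CPM in the controls and 126, 134, 124, 131 and 144 CPM with MitoQ (-0.76, SE 0.047, adjusted p = 8.26e-11). MYBL2 (chr20:43667019-43716496), which encodes B-MYB, read 136, 145, 136, 129.7 and 126 CPM in the controls and 122, 122, 121, 131 and 134 CPM with MitoQ; the groups overlapped and it did not pass the test (-0.092, SE 0.048, adjusted p = 0.109). In a single fit over all 16 libraries MYBL2 was called lower (-0.11, adjusted p = 0.0352).

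**Figure D3:**
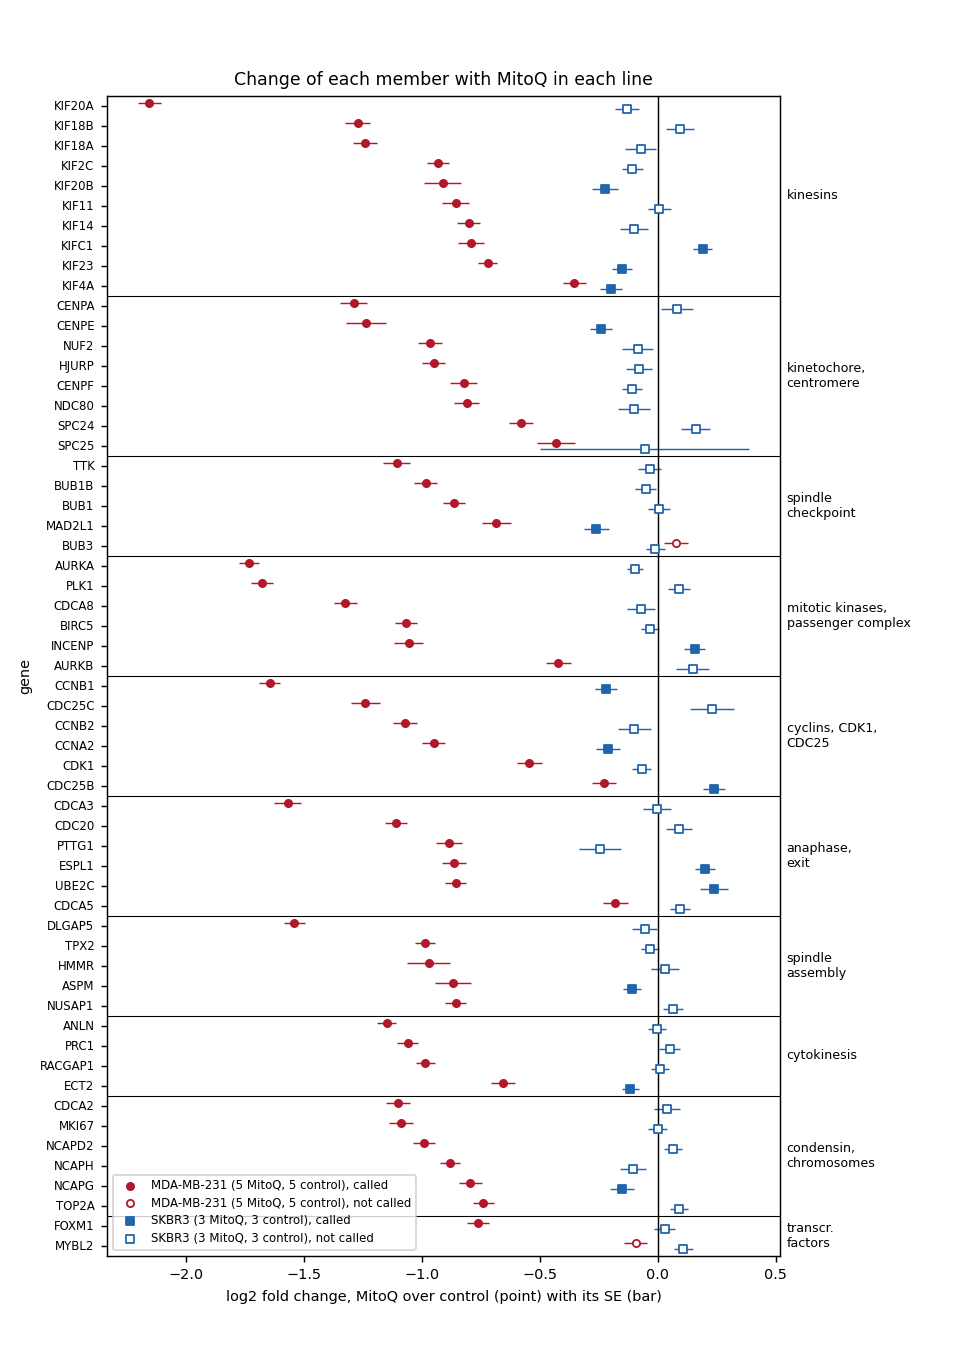
Log2 fold change of MitoQ over control (x axis; point, with its SE as a bar) for each of the 58 genes, by class, in MDA-MB-231 (red circles) and SKBR3 (blue squares); filled points passed an adjusted p of 0.05. The red points run from -2.15 (KIF20A) to 0.076 (BUB3), while the blue points stay between -0.26 and 0.24.

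In SKBR3 the same dose and time moved few of these genes, in both directions and by little. Of the 58 genes 10 were lower and 5 higher at an adjusted p under 0.05, against 14.1% and 13.8% of all 15026 genes tested, so the shares called lie near the background. The group's median was -0.032, with a range of -0.26 to 0.24, and no gene reached 2-fold; without MitoQ 2 the median was 0.011. Every MitoQ library lay below every control for 17 genes and above for 13, which held for 21.9% and 20.1% of all genes, and 28 overlapped. At an unadjusted p under 0.05 in the same test stood 26 genes, 15 of them lower. This count was not made over all genes, so it has no background and does not set the group apart. With plain library totals 8 genes were called lower and 8 higher, and these shares too lay near those over all genes with that scaling.

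The 10 genes called lower were CCNB1, CCNA2, MAD2L1, CENPE, KIF20B, KIF23, KIF4A, ECT2, NCAPG and ASPM, each of which was also lower in MDA-MB-231. Cyclin B1 (CCNB1) read 117, 109 and 111 CPM in the controls and 99.4, 91.7 and 98.7 CPM with MitoQ, without overlap, a change of -0.22 (SE 0.045, adjusted p = 0.00242). MAD2L1, whose product blocks CDC20 until chromosomes are attached, had the largest fall of the group in SKBR3, with 60.5, 56.6 and 57.4 CPM in the controls and 48.4, 46.0 and 51.7 CPM with MitoQ (-0.26, SE 0.054, adjusted p = 0.00267). CENPE, a kinetochore motor that gathers chromosomes at the spindle equator, read 148, 155 and 138 CPM in the controls and 131, 121 and 121 CPM with MitoQ (-0.24, SE 0.048, adjusted p = 0.00202), and KIF20B, the kinesin with the largest fall in SKBR3, read 56.7, 60.0 and 53.5 CPM in the controls and 50, 48.5 and 46.7 CPM with MitoQ (-0.22, SE 0.054, adjusted p = 0.00716). CCNA2 read 81.2, 81.2 and 72.5 CPM in the controls and 65.9, 68.1 and 67.9 CPM with MitoQ (-0.21, SE 0.051, adjusted p = 0.00629); in each of these the treated libraries lay below the controls. KIF4A changed by -0.20 (SE 0.047, adjusted p = 0.00602), KIF23 by -0.15 (SE 0.042, adjusted p = 0.0136), NCAPG, a condensin I subunit, by -0.15 (SE 0.051, adjusted p = 0.04), ECT2 by -0.12 (SE 0.035, adjusted p = 0.022) and ASPM by -0.11 (SE 0.037, adjusted p = 0.0403).

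The 5 called higher were all lower in MDA-MB-231. CDC25B read 249, 239 and 269 CPM in the controls and 292, 293 and 309.5 CPM with MitoQ, all treated libraries above the controls (0.24, SE 0.045, adjusted p = 0.00138). UBE2C read 84.1, 71.2 and 74.5 CPM in the controls and 86.3, 89.0 and 96.4 CPM with MitoQ (0.24, SE 0.06, adjusted p = 0.00992), and ESPL1, separase, 87.996, 86.4 and 94.1 CPM in the controls and 102, 103 and 104 CPM with MitoQ (0.20, SE 0.043, adjusted p = 0.00306). KIFC1, the minus-end motor that gathers extra spindle poles, changed by 0.19 (SE 0.041, adjusted p = 0.00336) and INCENP, the scaffold of the passenger complex, by 0.16 (SE 0.044, adjusted p = 0.0153). With 3 libraries a group, single libraries decided several calls. Between 5 and 9 genes were called lower, and between 4 and 8 higher, when 1 SKBR3 library was left out; 5 were lower without control 2 and also without MitoQ 2, and 8 were higher without control 3.

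The adjusted p without the library is given here for each call of SKBR3 that was lost. KIF20B (0.0549) and CCNA2 (0.0516) were lost without control 2, KIF4A without MitoQ 2 (0.0836), and KIF23 without control 3 (0.052) or MitoQ 2 (0.129). INCENP was lost without control 1 (0.0596) or MitoQ 3 (0.0782). ECT2 was lost without control 2 (0.111), control 3 (0.0642), MitoQ 1 (0.084) or MitoQ 2 (0.213), and NCAPG without control 1 (0.136), control 2 (0.121), MitoQ 1 (0.126) or MitoQ 2 (0.249). ASPM was lost without control 1 (0.0957), control 2 (0.175), control 3 (0.0649), MitoQ 2 (0.268) or MitoQ 3 (0.13). Without control 3, CDC25C (0.31, adjusted p = 0.0476), CDC20 (0.16, adjusted p = 0.0306) and MYBL2 (0.15, adjusted p = 0.0119) were called higher and PTTG1 lower (-0.30, adjusted p = 0.0201). Without control 1 SPC24 was called higher (0.20, adjusted p = 0.0468), and without MitoQ 1 MYBL2 was (0.14, adjusted p = 0.0413). CCNB1, MAD2L1, CENPE, CDC25B, UBE2C, ESPL1 and KIFC1 kept their call whichever SKBR3 library was left out. In a single fit of all 16 libraries CENPE was not called (-0.22, adjusted p = 0.116). That fit also lost KIF20B (0.139), KIF23 (0.0689), INCENP (0.0999), ECT2 (0.271), NCAPG (0.162) and ASPM (0.542). NCAPG and ASPM were lost with DESeq2 (0.125 and 0.0544) and with plain library totals (0.0525 and 0.071). With no filter ECT2 (0.0905), NCAPG (0.0754) and ASPM (0.121) were lost.

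Of the 6 genes with the largest falls in MDA-MB-231, CCNB1 was called lower in SKBR3 and the other 5 were not called. KIF20A read 68.6, 62.0 and 62.0 CPM in the controls and 60.1, 57.6 and 58.4 CPM with MitoQ, its treated libraries just below the controls (-0.13, SE 0.051, adjusted p = 0.0763). PLK1 read 81.0, 75.6 and 82.3 CPM in the controls and 83.4, 82.7 and 89.1 CPM with MitoQ, just above them (0.091, SE 0.047, adjusted p = 0.176), and AURKA read 175, 173 and 173 CPM in the controls and 163, 162 and 163 CPM with MitoQ, just below (-0.10, SE 0.035, adjusted p = 0.0524). DLGAP5 (-0.055), CDCA3 (-0.002), TPX2 (-0.031), BIRC5 (-0.032) and ANLN (-0.0014) had log2 fold changes near 0, with SEs of 0.038 to 0.061. MKI67 read 637, 589 and 587 CPM in the controls and 623, 595 and 596 CPM with MitoQ, with overlap, and BUB1 67.4, 68.5 and 64.1 CPM in the controls and 67.1, 65.3 and 67.9 CPM with MitoQ. TOP2A (0.09, SE 0.038, adjusted p = 0.0978) and MYBL2 (0.11, SE 0.04, adjusted p = 0.0558) stood slightly above their controls in all 3 treated libraries and were called higher with plain library totals (0.10, adjusted p = 0.0477, and 0.12, adjusted p = 0.0273). AURKA was called lower with mitochondrial genes left out (-0.10, adjusted p = 0.0442), PTTG1 lower with no filter (-0.23, adjusted p = 0.00526), SPC24 higher with plain totals (0.17, adjusted p = 0.0453), CDC25C higher in the single fit (0.25, adjusted p = 0.0468), and MYBL2 higher with no filter (adjusted p = 0.0403) or a filter at 1 CPM (adjusted p = 0.0435). PTTG1 had a change of -0.24 (SE 0.089, adjusted p = 0.0594), AURKB of 0.15 (SE 0.069, adjusted p = 0.127), SPC24 of 0.16 (SE 0.061, adjusted p = 0.0627) and CDC25C of 0.23 (SE 0.094, adjusted p = 0.0832). CENPA (0.081), NDC80 (-0.10), KIF11 (0.007), CDK1 (-0.068), CDC20 (0.091), PRC1 (0.051), NUSAP1 (0.064) and FOXM1 (0.03) did not pass the test either.

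SPC25 was the least certain measurement, at 5.02, 12.52 and 7.08 CPM in the controls and 9.69, 5.06 and 8.75 CPM with MitoQ, with an SE of 0.44 in SKBR3. Over the 58 genes the changes in the lines had a Pearson r of 0.16 and a Spearman rho of 0.055; genes are not replicates, and within a line they share the same libraries.

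The difference between the lines was tested as the interaction of line and treatment over all 16 libraries. For 56 of the 58 genes the log2 change was called higher in SKBR3 than in MDA-MB-231, at an adjusted p under 0.05. For none was it called lower. Among 17094 genes tested 19.1% were called above 0 and 14.9% below. The group's median interaction was 0.97, against 0.034 over all genes tested. KIF20A differed by 2.07 (SE 0.073, adjusted p = 9.55e-16), PLK1 by 1.81 (SE 0.075, adjusted p = 7.12e-15), AURKA by 1.68 (SE 0.056, adjusted p = 6.94e-16) and CCNB1 by 1.47 (SE 0.07, adjusted p = 6.82e-14). The class of mitotic kinases and passenger proteins had the highest median among the classes, 1.28, and that of the 2 transcription factors the lowest, 0.54. Smaller differences passed for CDK1 (0.52), CDC25B (0.51), CDCA5 (0.32), MYBL2 (0.24, SE 0.072, adjusted p = 0.0103) and KIF4A (0.20, SE 0.073, adjusted p = 0.036).

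The 2 genes not called were BUB3 (-0.041, SE 0.075, adjusted p = 0.735), which changed in neither line's test, and SPC25 (0.42, SE 0.33, adjusted p = 0.375). Without SKBR3 control 2 SPC25 was called (0.79, adjusted p = 0.0302). KIF4A was lost under every alternative scaling, filter, test, block and threshold, among them plain library totals (0.11, adjusted p = 0.276) and DESeq2 (0.18, adjusted p = 0.0787). Its call thus rests on the main setting. Leaving out a library ended the call too, for MDA-MB-231 control 1 (adjusted p = 0.0548) and control 2 (adjusted p = 0.0644), and for SKBR3 control 2 (adjusted p = 0.0592), control 3 (adjusted p = 0.0626), MitoQ 1 (adjusted p = 0.082) and MitoQ 3 (adjusted p = 0.0912). MYBL2 was lost with plain library totals (0.15, adjusted p = 0.0662), where 54 of the 58 genes were called. Of the genes called over the whole data, the share above 0 also moved with that scaling, from 56.1% to 41.6%. The 54 genes called in this group all lay above 0.

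Without MitoQ the lines already differed. In the 3 SKBR3 controls 53 of the 58 genes were lower than in the 5 MDA-MB-231 controls and 4 were higher, against 44.4% and 42% of the 16398 genes tested, and the median was -1.21, a 2.32-fold lower level in SKBR3. Furthest below were DLGAP5 at -2.65 (SE 0.046, adjusted p = 2.23e-22), NDC80 at -2.59 (SE 0.057, adjusted p = 1.57e-20) and BUB1 at -2.52 (SE 0.042, adjusted p = 1.28e-22), followed by AURKB (-2.51). The 4 higher in SKBR3 were MYBL2 at 0.99 (SE 0.044, adjusted p = 5.56e-15), CDC25B at 0.96 (SE 0.045, adjusted p = 1.04e-14), HMMR, a hyaluronan receptor that also binds the spindle, at 0.66 (SE 0.069, adjusted p = 1.14e-08), and ECT2 (0.32). TOP2A was at nearly the same level, -0.029 (SE 0.039, adjusted p = 0.489). AURKA, next to KIF20A in the size of its fall, differed by -0.23 (SE 0.037, adjusted p = 6.65e-06).

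Per kilobase of exonic sequence, the highest control levels in MDA-MB-231 were those of UBE2C (184 CPM per kilobase), TOP2A (179), CDC20 (174) and TPX2 (157), and the lowest those of HMMR (5.72) and CDC25C (6.68). In SKBR3 TOP2A (176 CPM per kilobase) led, then MYBL2 (95.6) and ANLN (65.9), with CDC25C (2.76) last. On a CPM scale set over all 16 libraries, the mean of the MDA-MB-231 controls exceeded that of the SKBR3 controls for 54 of 58 genes, with a median ratio of 2.34. After MitoQ the MDA-MB-231 mean still exceeded the SKBR3 control mean for 37 genes, with a median ratio of 1.13. All 5 treated MDA-MB-231 libraries lay above all 3 SKBR3 controls for 30 genes and below them for 16, and for 12 they overlapped. These counts on the common scale were not made over all genes, so they have no background here. In the test of the control lines 44.4% of all genes were lower and 42% higher in SKBR3.

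KIF20A stood at 159 ± 5.83 CPM (mean ± SD, n = 5) in MDA-MB-231 controls, 35.1 ± 1.76 CPM (n = 5) after MitoQ, 63.8 ± 3.72 CPM (n = 3) in SKBR3 controls and 59.3 ± 0.910 CPM (n = 3) after MitoQ, so it went from above to below the SKBR3 level. AURKA did the same, from 205 ± 4.60 CPM to 60.9 ± 1.22 CPM, against 173 ± 2.46 CPM in SKBR3 controls. DLGAP5 went from 315 ± 9.61 CPM to 107 ± 4.75 CPM and stayed above the SKBR3 controls at 49.6 ± 1.57 CPM. TOP2A, level with SKBR3 at the start, went from 1161 ± 28.0 CPM to 685 ± 24.2 CPM, below the SKBR3 controls at 1124 ± 20.8 CPM.

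**Figure D4:**
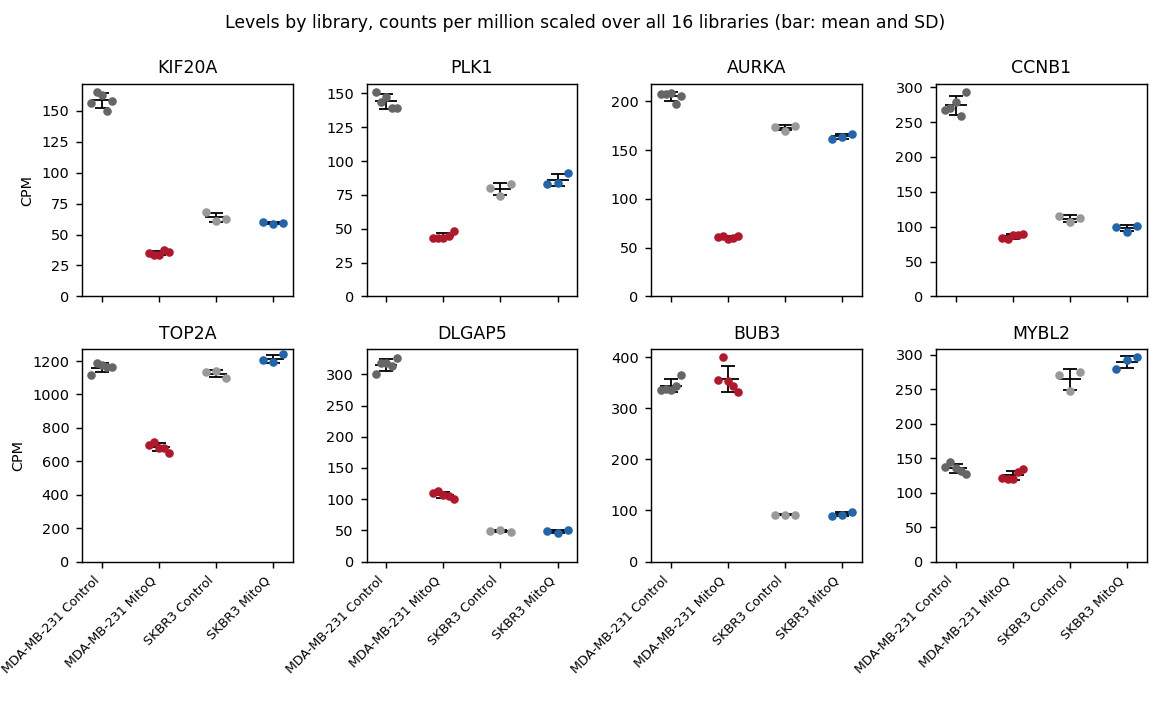
CPM on a scale set over all 16 libraries (y axis, from 0) for 8 genes in each library (points; 5, 5, 3 and 3 per group), with the group mean and SD as bars. KIF20A, PLK1, AURKA, CCNB1, TOP2A and DLGAP5 drop with MitoQ in MDA-MB-231 with no overlap, BUB3 and MYBL2 do not, and no SKBR3 gene shows a drop of that size.

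Other genes of the same processes, listed by function, were read from the same fits by their counts and medians. The median of all genes was 0.012 in MDA-MB-231 and -0.00064 in SKBR3. As background for each list below, 27.6% of all genes tested were lower and 29.9% higher in MDA-MB-231. For SKBR3 these shares were 14.1% and 13.8%. Counts near these shares do not set a list apart. Of 20 other spindle and cytokinesis genes 20 were lower in MDA-MB-231 (median -0.84), the largest fall being that of PSRC1 at -1.79 (SE 0.064, adjusted p = 3.1e-14); in SKBR3 3 were lower and 5 higher (median 0.0020). Of 19 other regulators of mitotic entry 15 were lower and 1 higher (median -0.35), from BORA, an activator of PLK1, at -1.60 (SE 0.079, adjusted p = 3.43e-12) to the checkpoint gene MAD1L1 at 0.63 (SE 0.059, adjusted p = 2.84e-08); in SKBR3 2 were lower and 1 higher (median -0.0060). Of 25 other kinetochore genes 16 were lower and 3 higher (median -0.30), with CENPI at -0.98 and CENPP at 0.46; in SKBR3 3 were lower and 2 higher (median -0.034). The interaction was called above 0 for 20 of the spindle, 14 of the entry and 13 of the kinetochore genes, and below 0 for 1 entry gene. Among all genes tested for it 19.1% were called above 0 and 14.9% below.

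Of 16 other condensin and cohesin genes 10 were lower and 1 higher (median -0.21), with SGO2, the shugoshin of centromeres, at -0.96 and STAG1 at 0.16 (SE 0.056, adjusted p = 0.0175), a call that control 1 decided (adjusted p = 0.0511 without it). In SKBR3 3 of them were lower and 2 higher (median -0.061). Subunits and partners of the anaphase-promoting complex split: 8 of 16 were lower and 7 higher (median -0.068), from UBE2S at -0.78 to ANAPC16 at 0.79 (SE 0.048, adjusted p = 6.58e-11), and in SKBR3 3 were lower and 2 higher (median -0.078). A list of 14 genes joined those of the DREAM and MuvB complexes with the NF-Y genes NFYA, NFYB and NFYC, which belong to neither complex. Of the 14, 7 were lower and 1 higher (median -0.14), with NFYB at -0.44 and LIN37 at 0.34 (SE 0.096, adjusted p = 0.00491). In SKBR3 2 were lower and 2 higher (median -0.013), LIN37 among the higher (0.45). Of 36 DNA replication genes 19 were lower and 3 higher in MDA-MB-231 (median -0.15), from GINS4 at -1.17 (SE 0.043, adjusted p = 4.08e-14) to GINS3 at 0.39, and in SKBR3 1 was lower and 7 higher (median 0.024), CDT1 most (0.42).

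Of the 8 CDK inhibitor genes listed 6 were tested in MDA-MB-231, 4 lower and 2 higher. CDKN1A, which encodes p21, rose from 48.5 ± 3.54 to 161 ± 24.6 CPM (SD, n = 5), a log2 fold change of 1.73 (SE 0.1, adjusted p = 1.46e-08). CDKN2C (p18) had the largest fall at -1.60 (SE 0.077, adjusted p = 2.24e-12). In SKBR3 7 were tested, 3 higher and none lower, and CDKN1A rose from 8.33 ± 1.56 to 13.98 ± 1.49 CPM (SD, n = 3), at 0.72 (SE 0.13, adjusted p = 0.000965). Its rise differed between the lines by -0.98 (adjusted p = 0.00309).

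Besides CDKN1A, LIN37 and CDT1, the genes with the largest called change of their list in either direction in SKBR3 were PKMYT1 (0.48) and ENSA (-0.25) in mitotic entry, CENPH (0.32) and ZWILCH (-0.22) at the kinetochore, PDS5B (-0.23) in cohesion, and UBE2S (0.39), ANAPC15 (-0.29), POC1A (0.24), DEPDC1 (-0.22), NCAPH2 (0.25), NFYA (-0.21) and RPA3 (-0.19). The calls from UBE2S to RPA3 were lost when 1 or another SKBR3 library was left out, with an adjusted p of up to 0.22 (RPA3 without MitoQ 2).

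**Figure D5:**
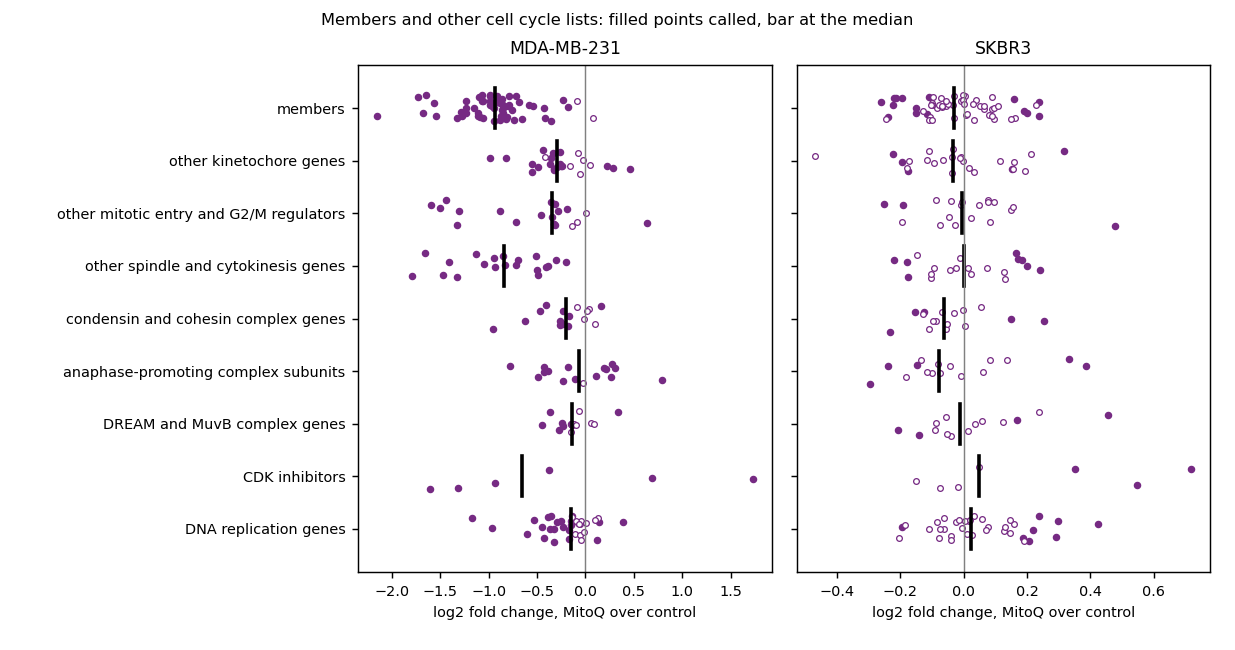
Log2 fold change of MitoQ over control (x axis, with a different range in each panel) for the 58 genes and 8 other lists of cell cycle genes (y axis; points spread vertically at random), in MDA-MB-231 (left) and SKBR3 (right); filled points passed the test and bars mark medians. In MDA-MB-231 the medians run from -0.94 (the 58 genes) and -0.84 (other spindle and cytokinesis genes) to -0.068 (anaphase-promoting complex), while in SKBR3 they lie between -0.078 and 0.049.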

How the data were processed

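RNA was sequenced from 16 libraries of 2 breast cancer cell lines. The authors deposited a table of estimated counts per gene and library, which need not be whole; the submitters' processing notes name Salmon, edgeR and GRCh38, while their versions and the annotation release are not given in the sources used here. For the fits, estimated counts were rounded to whole numbers. Totals per library ran from 14723152 to 29294865. Each comparison was fitted over all genes that passed filterByExpr, with TMM scaling and edgeR's (4.0.16) robust quasi-likelihood test in R 4.3.3, and Benjamini-Hochberg adjustment over all genes tested, with a threshold of 0.05. The MitoQ effect was fitted within each line, the difference between the lines as an interaction over all libraries, and the control lines against each other. The scripts were tested on simulated data. Gene positions, exonic lengths and shared 31-base stretches came from GENCODE 29, and promoters from RefSeq (GRCh38.p14).

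The 58 genes and the other lists were chosen with earlier results of these data known. Named were a panel of 21 genes, the most and least negative gene of each class in each line, genes not called or called higher in MDA-MB-231 or called higher in SKBR3, the 3 highest and 3 lowest between the control lines, and in each other list the called gene with the largest change in each direction. Other genes among the 58 were named after their values were seen. Alternatives were RLE and plain totals as scaling, DESeq2 (1.42.0), no filter or a filter at 1 CPM, mitochondrial genes left out, a threshold of 0.01, a test against 1.2-fold, a replicate block, a single fit of all libraries, and each library left out. Adding the counts of read-through genes, and the promoters of tested genes as background, were alternatives chosen after seeing the data. Whether replicate numbers pair the libraries is not stated in the sources used here, and the main fits did not pair them.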

Additional observations from a re-analysis of the deposited data

Results flagged for a closer look

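In 5 of the 118 groups of 5 libraries looked at, 1 library stood apart from the other 4, where chance gives about 1 in 20. KIF11 stood at 184 CPM in MDA-MB-231 MitoQ library 2, against 145 to 152 CPM in the others, and BUB1 in the same library at 234 CPM, against 199 to 206 CPM. KIF4A stood at 70.0 CPM in MitoQ library 3, against 79.2 to 81.2 CPM. Among the controls BUB3 stood at 362 CPM in library 5, against 334 to 339 CPM, and TTK at 93.8 CPM in library 1, against 104 to 108 CPM. With any of these libraries left out, the MDA-MB-231 calls of these 5 genes were as before.

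The change with MitoQ differed between the lines by the interaction test for 56 of the 58 genes, with a median over the group of 0.97. In log2 units, SKBR3 minus MDA-MB-231, the difference was KIF20A 2.07, KIF11 0.90, CENPA 1.41, NDC80 0.75, BUB1 0.91, AURKA 1.68 and AURKB 0.61. It was PLK1 1.81, BIRC5 1.08, CCNA2 0.78, CCNB1 1.47, CDK1 0.52, CDC25B 0.51 and CDC20 1.24. For the remaining genes of the panel it was PTTG1 0.68, TPX2 0.998, PRC1 1.15, TOP2A 0.87, MKI67 1.13, FOXM1 0.83 and MYBL2 0.24.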

How the results depend on the processing

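In MDA-MB-231 56 genes were called lower whichever of its libraries was left out; plain library totals gave 1 gene called higher (BUB3) and a median of -0.88, and moved the interaction median to 0.88. In SKBR3 the count of lower genes fell from 10 to 6 at a threshold of 0.01 and to 4 in a single fit, 8 were higher with plain totals, and 0 were lower and 0 higher against 1.2-fold. Leaving out 1 SKBR3 library gave 5 to 9 lower, 4 to 8 higher and medians of -0.042 to 0.011. The median between control lines was -1.27 with no filter, -1.13 with a filter at 1 CPM and -1.18 without mitochondrial genes, and -1.24 to -1.17 with 1 library left out. The causes were not tested. Gene by gene, calls among the 58 were lost 3 times and gained 2 times over all alternatives in MDA-MB-231, 55 and 19 times in SKBR3, and 19 times and 1 time in the interaction; between control lines 8 were lost. No called value changed sign. Same-numbered control and MitoQ libraries had an r of -0.089 to 0.0048 in MDA-MB-231 and -0.0069 to 0.076 in SKBR3. In SKBR3 controls 1 (0.039) and 3 (0.076) matched the MitoQ library of the same number best, while in MDA-MB-231 no control did. With so few libraries this cannot show whether replicate numbers pair them. With a replicate block 56 genes were lower in MDA-MB-231, 14 were lower and 6 higher in SKBR3, 55 were called in the interaction, and 52 were lower and 4 higher between control lines. Between control lines the block matched libraries of different lines by number alone, so it is no check of pairing there. MDA-MB-231 controls 4 and 5 have no SKBR3 control of that number. With the block KIF20A (adjusted p = 0.0469), AURKA (0.0432), CENPF (0.0395) and PTTG1 (0.022) were among those lower in SKBR3, and MYBL2 (0.0276) among those higher. The 3 libraries a group limit the precision in SKBR3. SPC25 varied more there (SE 0.44) than CDC25C at a similar level (SE 0.094).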
